A study of Mus musculus with 12 samples.

Results

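The 10 genes described here encode proteins of the Z-disc, the plate at which neighbouring sarcomeres of heart muscle join, and proteins tied there to the giant spring titin: Tcap, Ttn, Csrp3, Ankrd1, Myoz2, Ldb3, Actn2, Nebl, Des and Xirp2. They were chosen by name, with earlier results of these data known, and each symbol matched 1 Ensembl gene of the 49315 in the deposited counts. All 10 passed the filter on low counts, which 15476 genes passed. The series asked how pregnancy with metabolic syndrome, brought on by a Western diet, remodels the heart. Female wild-type mice (C57BL/6J in the protocol, C57BL/6 in the strain label) were fed either a control diet with 10% of its calories from fat or a Western diet with 45% from fat and 17% from sucrose. After 15 weeks, mice of each diet were bred or kept unbred on the same food. Hearts of bred mice were taken 1 day after delivery, called postpartum here, and hearts of unbred mice at the same age of 27 to 29 weeks, called nonpregnant. There were 3 RNA-seq libraries in each of the 4 groups, 12 in all, from trimmed heart tissue; the sources used here do not say which chambers it held.

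The Z-disc holds the ends of the actin filaments, crosslinked by alpha-actinin, and it anchors titin, the spring that runs to the middle of the sarcomere and sets the passive stiffness of the muscle. Proteins placed on titin and at the Z-disc change with load: some leave it for the nucleus when the muscle is stretched, and telethonin, the product of Tcap, ties the ends of neighbouring titin molecules together. Mutations in many of these genes cause dilated or hypertrophic cardiomyopathy in people. Desmin filaments link the Z-discs of neighbouring myofibrils to each other, to the mitochondria and to the cell border.

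Levels are given as CPM, read counts scaled to the size of a library after adjustment by the trimmed mean of M-values. Total counts ran from 22754591 to 29492416 per library, and the counts of the 10 genes from 5375 (Nebl) to 156602 (Ttn). The Poisson error of the lowest of these counts is 1.36% of its value. A gene is said to have risen or fallen where the adjusted p of edgeR's quasi-likelihood test, corrected over all 15476 genes, was under 0.05. The heart muscle markers Myh6, Myl2, Myl3, Tnnt2, Tnni3, Actc1, Ryr2 and Pln together stood at 68304 to 81539.9 CPM, so the defining markers of the labelled tissue were present. The 12 skeletal muscle markers, of which 5 passed the filter, summed to at most 28.5 CPM in any library, and none of the 12 was at 0 in all 12 libraries. The 6 fat cell markers summed to 21.9 to 216 CPM in control diet postpartum hearts, the highest value being that of replicate 3, and to 17.96 to 31.9 CPM in the other groups. Labels give no sign that libraries of a group share an animal or that they do not, so p-values measure the spread between these libraries. The numbers in the titles of all postpartum libraries come before those of all nonpregnant ones, and anything that follows that order cannot be told apart from pregnancy.

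In the genome build of the files, GRCm38, Tcap is a short gene on chromosome 11 (chr11:98383811-98384953, plus strand, 2 exons, 948 bases counted). Ttn lies on chromosome 2 (chr2:76703980-76982547, minus strand) with 345 merged exons and 116825 counted bases. Nebl (chr2:17343909-17731464, minus strand) and Xirp2 (chr2:67446002-67526614, plus strand) lie on the same chromosome, and Des on chromosome 1 (chr1:75360329-75368579, plus strand). Ankrd1 (chr19:36111965-36119844), Csrp3 (chr7:48830398-48848033), Myoz2 (chr3:123006206-123035015), Ldb3 (chr14:34526699-34588681) and Actn2 (chr13:12269426-12340760) are all on minus strands. Counts join all transcripts of a gene, so the stiff and compliant forms of titin, or the transcripts of Nebl that begin at separate sites, are not told apart. Whether the counting used strand is not given in the sources used here. Exons of 3 of the 10 genes overlap a gene on the other strand, and those neighbours held a mean of 0.25 (beside Ttn), 22.8 (beside Des) and 1.08 counts (beside Xirp2) per library, against 13564 to 128659 for the 3 genes themselves.

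On the Western diet the CPM of 5 of the genes were higher in every postpartum library than in every nonpregnant one: Des, Ankrd1, Myoz2, Actn2 and Ttn. Of these only Des passed the test, and Tcap and Nebl were lower without overlap, while 19.6% of all genes tested had groups that did not overlap in that comparison. The 250 bases before the RefSeq start site of each (GRCm38.p6, written 5′ to 3′ on the gene's strand and ending at the base before the start) are shown because these 5 stood higher together. Capitals mark matches, on either strand, to the E-box CACGTG, the MCAT element CATTCC that TEAD factors bind, the GATA site AGATAA, the CArG box of serum response factor and the MEF2 site. Of all 32851 promoter windows of this length in the table, 6.02% held the E-box, 12.6% the MCAT element, 9.99% the GATA site, 1.47% a CArG box and 2.92% a MEF2 site.
Des, chr1:75360042-75360291, plus strand: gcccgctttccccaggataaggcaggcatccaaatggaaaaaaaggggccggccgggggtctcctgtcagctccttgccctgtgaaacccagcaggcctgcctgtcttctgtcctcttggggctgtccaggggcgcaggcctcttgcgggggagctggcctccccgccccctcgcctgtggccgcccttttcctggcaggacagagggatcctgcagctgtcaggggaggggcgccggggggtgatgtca
Ankrd1, chr19:36119845-36120094, minus strand: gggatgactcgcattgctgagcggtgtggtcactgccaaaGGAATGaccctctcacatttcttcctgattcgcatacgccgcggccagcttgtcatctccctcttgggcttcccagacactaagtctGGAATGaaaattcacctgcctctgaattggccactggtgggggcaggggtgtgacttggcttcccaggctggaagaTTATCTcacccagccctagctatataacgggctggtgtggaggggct
Myoz2, chr3:123034988-123035237, minus strand: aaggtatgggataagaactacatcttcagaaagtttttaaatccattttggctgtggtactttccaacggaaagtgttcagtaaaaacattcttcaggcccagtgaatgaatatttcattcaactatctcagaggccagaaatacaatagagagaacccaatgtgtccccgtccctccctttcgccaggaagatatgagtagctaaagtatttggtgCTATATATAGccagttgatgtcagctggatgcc
Actn2, chr13:12340733-12340982, minus strand: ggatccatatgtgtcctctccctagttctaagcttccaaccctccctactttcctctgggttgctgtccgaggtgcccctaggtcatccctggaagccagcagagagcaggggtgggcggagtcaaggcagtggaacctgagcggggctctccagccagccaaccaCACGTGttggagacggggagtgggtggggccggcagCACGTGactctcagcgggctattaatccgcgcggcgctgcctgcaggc
Ttn, chr2:76982548-76982797, minus strand: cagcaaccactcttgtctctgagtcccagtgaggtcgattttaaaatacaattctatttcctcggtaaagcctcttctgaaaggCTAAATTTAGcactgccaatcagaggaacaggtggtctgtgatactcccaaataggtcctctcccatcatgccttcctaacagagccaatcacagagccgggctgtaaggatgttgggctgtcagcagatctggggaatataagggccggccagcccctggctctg
The Ankrd1 window held 2 MCAT elements, 210 and 123 bases before the start, and 1 GATA site at 47 bases. The Actn2 window held 2 E-boxes, at 84 and 48 bases, the Myoz2 window a MEF2 site at 33 bases and the Ttn window a MEF2 site at 166 bases. The Des window held none of the 5 motifs. No 1 of the motifs was in all 5 windows, and a match describes letters only. Windows of 9 of the 10 genes, 14 in all, were in the table; Tcap had none.

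Per length of counted exon, Tcap was the most abundant of the 10 transcripts, at 1489.8 ± 468 CPM per kb (mean ± SD over 12 libraries), and every library's Tcap value was above every library's value of the next gene. Des (563 ± 66.1), Actn2, the alpha-actinin of heart and skeletal muscle (529.8 ± 44.7), and Ankrd1 (443 ± 159.9) followed, and the ranges of neighbours in this order overlapped. Csrp3 (367 ± 30.6) overlapped Ankrd1. Myoz2 (245 ± 24.4) and Ldb3 (151 ± 12.9) came next, each with all libraries apart from its neighbours. Xirp2 (44.1 ± 6.61) and Ttn (42.9 ± 3.0) overlapped, and Nebl was the lowest (17.3 ± 1.44). The length used for Ttn and Nebl sums all their annotated exons, which no single transcript holds, so their level per length is understated. The lengths of the other genes were counted in the same way, and how far this lowers their levels was not examined. The genes varied unequally among the 12 libraries: the highest CPM was 3.65 times the lowest for Ankrd1 and 2.39 times for Tcap, against 1.26 to 1.72 times for the other 8.

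**Figure D1:**
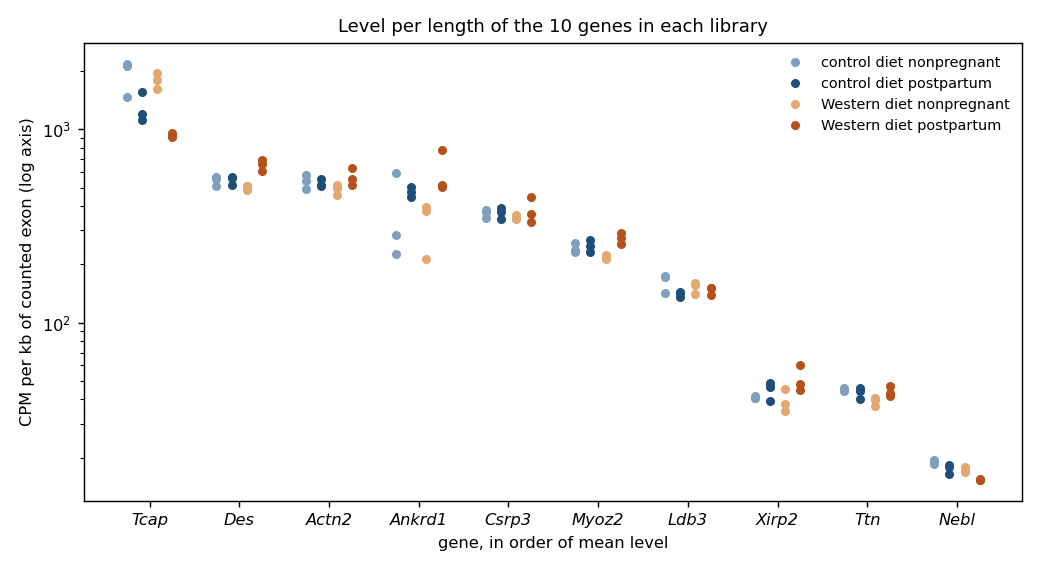
CPM per kb of counted exon (log axis) of the 10 genes in each of the 12 libraries, coloured by group, with genes in order of their mean. Tcap lies above all others in every library and Nebl below all others.

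Tcap, the titin cap that joins titin ends at the Z-disc edge, fell after pregnancy on the Western diet. Its CPM were 1715, 1865 and 1526 in the 3 Western diet nonpregnant libraries and 878, 912 and 871 in the postpartum ones. The groups do not overlap, and the 3 postpartum values lie closer together than those of any other group. Tcap fell by 47.9% (log2 fold change -0.94, SE 0.15, adjusted p = 0.0249). On the control diet Tcap stood at 1392, 2078 and 2027 CPM in nonpregnant and 1144, 1484 and 1054 CPM in postpartum hearts. There replicate 1 of the nonpregnant group was low and replicate 2 of the postpartum group high, so that the groups overlapped, and the change of -0.58 (SE 0.14) on the log2 scale did not pass (adjusted p = 0.136). Without control diet nonpregnant replicate 1, named after its low Tcap value was seen, it was -0.73 and passed (adjusted p = 0.00943). Leaving that library out also raised the calls over all genes from 37 to 205. Without nonpregnant replicate 2 or postpartum replicate 1 of the control diet, 0 of all genes were called. Averaged over both diets Tcap fell by 0.76 on the log2 scale (SE 0.10, adjusted p = 0.00625), and it fell by 1.05 from control diet nonpregnant to Western diet postpartum hearts (SE 0.15, adjusted p = 0.00439), where means were 1833 ± 382 and 887 ± 22.2 CPM (SD, n = 3). Both of these calls held without each library in turn, at -0.84 to -0.71 and -1.21 to -0.94. The call on the Western diet alone held without postpartum replicate 2 (adjusted p = 0.00841) and was lost without any 1 of the other 5 libraries, at log2 fold changes of -1.01 to -0.87: nonpregnant replicates 1 (0.0974), 2 (0.0839) and 3 (0.0633) and postpartum replicates 1 (0.0926) and 3 (0.0967), each an adjusted p. Over all genes, the fits without any 1 Western diet nonpregnant library or without postpartum replicate 3 called 0. That without postpartum replicate 1 called 7, against 91 with all libraries, so the loss is not particular to Tcap. The fit without postpartum replicate 2, in which the call held, called 472. Whole tissue does not show whether fewer cells of a type or less RNA per cell lie behind a lower level.

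Markers of other cell types moved in some of the same comparisons (named after their values were seen). In the average over both diets 2 of 6 fibroblast markers rose, Col1a1 (log2 fold change 0.48, adjusted p = 0.0417) and Col1a2 (log2 fold change 0.43, adjusted p = 0.0413), as did 3 of 6 macrophage markers, Cd68 (log2 fold change 0.54, adjusted p = 0.0182), C1qa (log2 fold change 0.32, adjusted p = 0.026) and C1qb (log2 fold change 0.29, adjusted p = 0.0312). Of the 8 heart muscle markers 1 fell there, Myl2 (log2 fold change -0.24, adjusted p = 0.035). Over all genes 1.78% passed in this average, and 2.62% between control diet nonpregnant and Western diet postpartum hearts. From control diet nonpregnant to Western diet postpartum hearts Pdgfra of the fibroblast list (log2 fold change 0.28, adjusted p = 0.04995), Pecam1 of the 6 endothelial markers (log2 fold change 0.34, adjusted p = 0.0109) and C1qb (log2 fold change 0.38, adjusted p = 0.0342) rose, and Pln of the heart muscle list fell (log2 fold change -0.27, adjusted p = 0.0432). The fibroblast markers summed to 570.2 to 714 CPM in control diet nonpregnant, 780.2 to 848 in control diet postpartum, 725 to 769.9 in Western diet nonpregnant and 718 to 799 in Western diet postpartum hearts. The macrophage markers summed to 137 to 173, 189 to 213, 151 to 179 and 175 to 202 CPM in the same order, and the endothelial markers to 735 to 777, 811 to 833, 805 to 867 and 829 to 917 CPM. The heart muscle markers summed to 71927 to 81539.9, 68451 to 76987, 68304 to 71069.7 and 71103 to 71753 CPM. No marker of the fibroblast, macrophage or endothelial lists was at 0 in all libraries. Between the 2 Western diet groups the sums of the fibroblast, macrophage and endothelial lists overlap, and between the 2 control diet groups they do not, standing higher postpartum. Their part in the results for Tcap, Nebl and Des was not tested.

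Between the diets Tcap differed by -0.11 in nonpregnant hearts (adjusted p = 0.872) and by -0.47 in postpartum hearts (adjusted p = 0.141) on the log2 scale, neither past the threshold. In the postpartum comparison all 3 Western diet values lay below the lowest control value of 1054 CPM. The lowest group for Tcap was thus Western diet postpartum, followed by control diet postpartum (1228 ± 227 CPM), Western diet nonpregnant (1702 ± 169.6) and control diet nonpregnant hearts (SD, n = 3). The nonpregnant groups overlap each other, and the control diet postpartum group overlaps control diet nonpregnant but not Western diet nonpregnant hearts. The difference between the pregnancy effects on the 2 diets was -0.36 (SE 0.20) and did not pass (adjusted p = 0.607). Per length, the ratio of Tcap to Ttn was 42.9 ± 8.40 and 29.8 ± 4.79 in control diet nonpregnant and postpartum hearts and 46.1 ± 5.54 and 21.3 ± 1.65 in the Western diet groups (SD, n = 3), a description with no test.

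**Figure D2:**
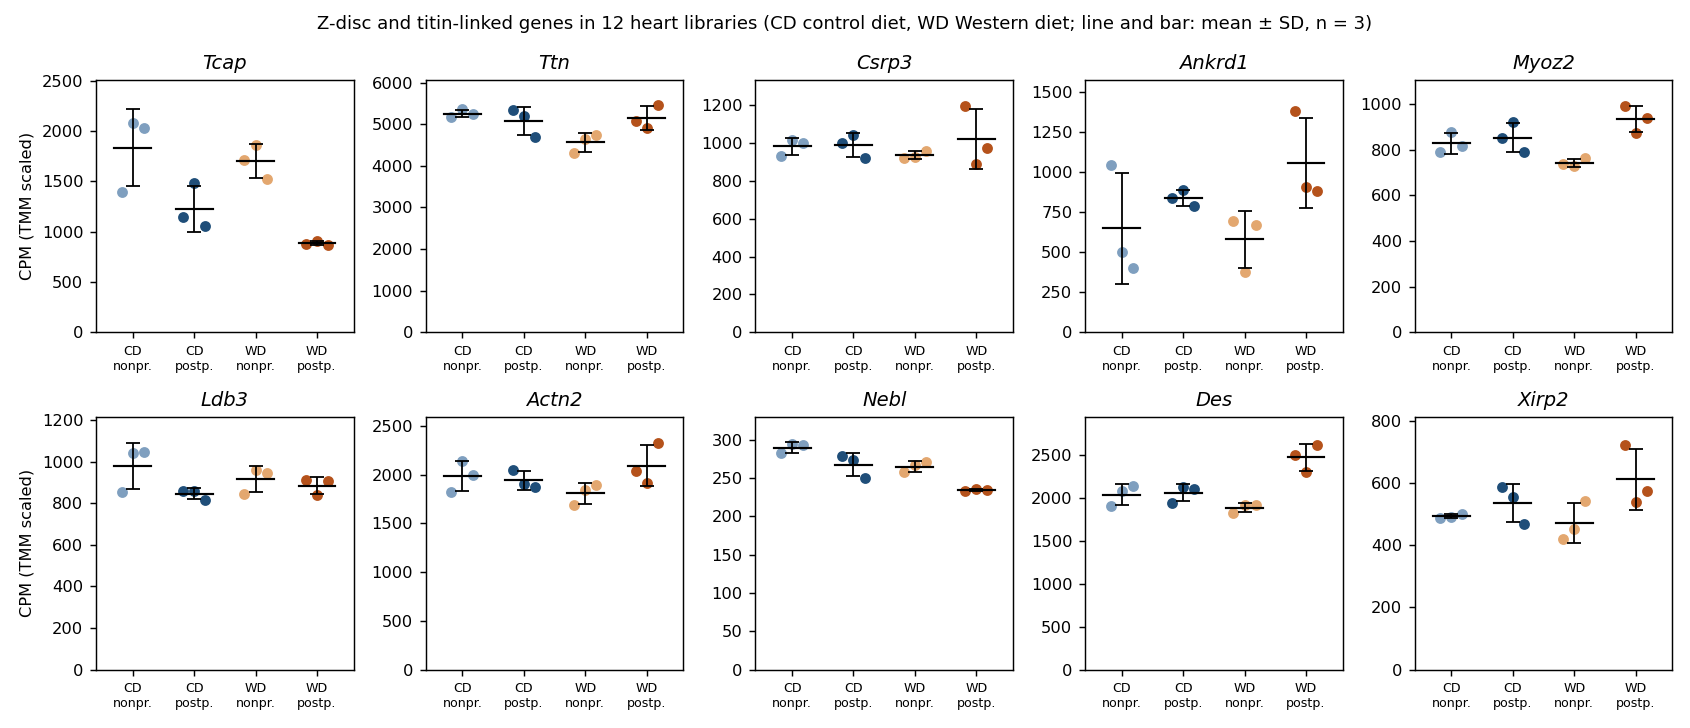
CPM of each of the 10 genes in each library (points, replicates 1 to 3 from left to right), by group, with the mean ± SD of 3 libraries, on axes that start at 0. Tcap sits at 871 to 912 CPM in Western diet postpartum hearts, below all other libraries, while Des there lies above all others.

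Ttn, the partner that Tcap caps, did not pass in any of the 8 comparisons. Its CPM were 5171, 5358 and 5238 in control diet nonpregnant and 5332, 5188 and 4703 in control diet postpartum hearts. On the Western diet they were 4300.1, 4650.1 and 4739 in nonpregnant and 5066, 4898 and 5458 in postpartum hearts. The Western diet nonpregnant group was thus the lowest: it did not overlap control diet nonpregnant hearts (log2 difference -0.20, adjusted p = 0.36) or Western diet postpartum hearts (0.17, adjusted p = 0.255). Actn2, which crosslinks actin and binds titin in the Z-disc core, had the pattern nearest to that of Ttn among the 10 genes, with a root mean square difference of 0.0662 on the log2 scale after each gene was centred on its mean over 12 libraries. Its CPM were 1691, 1845 and 1896 in Western diet nonpregnant and 2034, 1913 and 2324 in Western diet postpartum hearts, apart by 0.21 on the log2 scale (adjusted p = 0.262), and on the control diet its groups, at 1986 ± 157 and 1942 ± 94.4 (SD, n = 3), overlapped. Actn2 did not pass in any comparison either.

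Among the stretch-linked genes, Ankrd1, a titin-bound ankyrin repeat protein that moves to the nucleus in stretched heart muscle, had its higher group means after pregnancy on each diet, with a wide spread. Its CPM were 696, 377 and 668 in Western diet nonpregnant and 1379, 907 and 883 in Western diet postpartum hearts, which do not overlap. They were 1046, 498 and 401 in control diet nonpregnant and 839, 889 and 790.2 in control diet postpartum hearts. Replicate 1 of the control diet nonpregnant group, the library in which Tcap was low for its group, held more Ankrd1 than every control diet postpartum library. The log2 fold changes of 0.86 on the Western diet (SE 0.30, adjusted p = 0.207), 0.37 on the control diet (SE 0.30, adjusted p = 0.665), 0.62 on average (adjusted p = 0.155) and 0.70 for Western diet postpartum against control diet nonpregnant hearts (adjusted p = 0.238) did not pass. Without that 1 library the averaged change was 0.88 (adjusted p = 0.0135) and the last 1.24 (adjusted p = 0.0217), both past the threshold. The change on the control diet was then 0.91 and still did not pass (adjusted p = 0.0846). That library was named after its high Ankrd1 value was seen. Leaving it out also raised the calls over all genes, from 276 to 488 for the average and from 406 to 481 for the last comparison.

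Xirp2, an actin-binding Xin repeat protein of Z-discs and intercalated discs, did not pass in any comparison. It stood at 419.8, 452 and 542 CPM in Western diet nonpregnant and 722, 537 and 574 CPM in Western diet postpartum hearts. These groups overlap by 1 library each, and the log2 difference was 0.37 (adjusted p = 0.158). Control diet nonpregnant hearts varied little (493 ± 6.44 CPM, SD, n = 3) and lay below every Western diet postpartum library, at a log2 difference of 0.31 (adjusted p = 0.172). Csrp3, the muscle LIM protein that binds telethonin and alpha-actinin and is often described as a stretch sensor, had group means of 982, 988, 935 and 1018 CPM in control diet nonpregnant, control diet postpartum, Western diet nonpregnant and Western diet postpartum hearts. All groups overlapped, its largest single value (1194 CPM) came from Western diet postpartum replicate 1, and its adjusted p was 0.571 at the lowest of the 8 comparisons. Western diet postpartum replicate 1 also held the highest values of Ankrd1, Myoz2 and Xirp2 among the 12 libraries.

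Nebl, which encodes nebulette, a Z-disc protein that binds actin and filamin, fell in 1 of the 8 comparisons. From control diet nonpregnant hearts, at 282, 295 and 293 CPM, it fell by 19.1% to 234, 235 and 235 CPM in Western diet postpartum hearts (log2 fold change -0.31, SE 0.05, adjusted p = 0.0141). The call was lost without control diet nonpregnant replicate 2 (log2 fold change -0.29, adjusted p = 0.0636), without Western diet postpartum replicate 1 (-0.30, adjusted p = 0.0628) or without replicate 3 of that group (-0.30, adjusted p = 0.0503). The groups between these stood at 278, 273 and 250.02 CPM (control diet postpartum) and 257, 267 and 271 CPM (Western diet nonpregnant), and these overlap each other. In each of the 4 comparisons of 1 factor within a level of the other, the 2 groups of Nebl did not overlap, with the lower values postpartum or on the Western diet. None of these 4 passed: the log2 fold changes were -0.12 (adjusted p = 0.405) and -0.18 (0.158) for pregnancy on the control and Western diets, and -0.13 (0.491) and -0.19 (0.118) for diet in nonpregnant and postpartum hearts. The interaction was -0.06 (SE 0.08, adjusted p = 0.851). The SD of the Western diet postpartum group was 0.388% of its mean, less than the Poisson error given above, so these 3 values lie closer together than counting error would place them on average.

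Myoz2, calsarcin-1, which tethers calcineurin at the Z-disc, stood at 736, 728 and 762 CPM in Western diet nonpregnant and 992, 876 and 938 CPM in Western diet postpartum hearts. The groups do not overlap, and the change missed the threshold narrowly (log2 fold change 0.33, SE 0.07, adjusted p = 0.0518). It passed under 5 alternatives that kept all libraries, among them DESeq2 (adjusted p = 0.000791) and DESeq2's size factors in edgeR (0.0488), at log2 values of 0.32 to 0.33. Over all genes these 2 settings called 361 and 92 in this comparison, against 91 in the main fit. Myoz2 on the control diet stood at 829 ± 45.2 and 854 ± 65.1 CPM (SD, n = 3), with overlapping groups. Ldb3, the PDZ-LIM protein Cypher that binds alpha-actinin, stood at 852, 1041 and 1045 CPM in control diet nonpregnant and 859, 861 and 814 CPM in control diet postpartum hearts. Its groups overlapped through nonpregnant replicate 1, and no comparison passed (log2 fold change -0.21 for this one, adjusted p = 0.297).

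Des, the muscle intermediate filament desmin, rose after pregnancy on the Western diet. Its CPM were 1823, 1914 and 1915 in Western diet nonpregnant and 2499, 2299 and 2618 in Western diet postpartum hearts, a rise of 31.2% (log2 fold change 0.39, SE 0.07, adjusted p = 0.0278). The groups do not overlap, and the 3 postpartum values are the highest of all 12 libraries. On the control diet the values were 1902, 2082 and 2134 in nonpregnant and 1945, 2129 and 2104 in postpartum hearts, with overlap and no change past the threshold (adjusted p = 0.956). Des also rose from control diet nonpregnant to Western diet postpartum hearts (log2 fold change 0.28, SE 0.07, adjusted p = 0.0461) and in the average over both diets (log2 fold change 0.20, SE 0.05, adjusted p = 0.0486). Between the diets it differed by 0.26 on the log2 scale in postpartum hearts, with no overlap and an adjusted p of 0.0802. The difference between the pregnancy effects on the 2 diets was 0.38 (SE 0.10, adjusted p = 0.357) and did not pass.

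Each call of Des ended when certain single libraries were left out. That on the Western diet held without postpartum replicate 2 (adjusted p = 0.00488) and was lost without any other library of the 2 groups, at 0.35 to 0.44 over the 6: nonpregnant replicates 1 (adjusted p = 0.109), 2 (0.0839) and 3 (0.0771) and postpartum replicates 1 (0.122) and 3 (0.103). The fits in which it was lost called at most 7 of all genes, against 91 with all libraries, and the fit in which it held called 472. The call of Des for Western diet postpartum against control diet nonpregnant hearts likewise held without Western diet postpartum replicate 2. That fit called 764 of all genes, against 406 with all libraries. The call was lost without each of the other 5 libraries (adjusted p = 0.0692 to 0.165, log2 fold change 0.23 to 0.33 over the 6). Those 5 fits called 87 to 481 of all genes. The averaged call held without Western diet postpartum replicate 2, control diet nonpregnant replicate 1 or control diet postpartum replicate 1, and was lost without each of the other 9 (adjusted p up to 0.123, 0.18 to 0.23 over the 12). Desmin is also made by smooth muscle. The 8 markers of smooth muscle and pericytes summed to 1096 to 1179 CPM in Western diet nonpregnant and 1049.5 to 1231 CPM in Western diet postpartum hearts, ranges that overlap, with a median log2 fold change of -0.05. The part of smooth muscle in the results for Des was not tested.

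**Figure D3:**
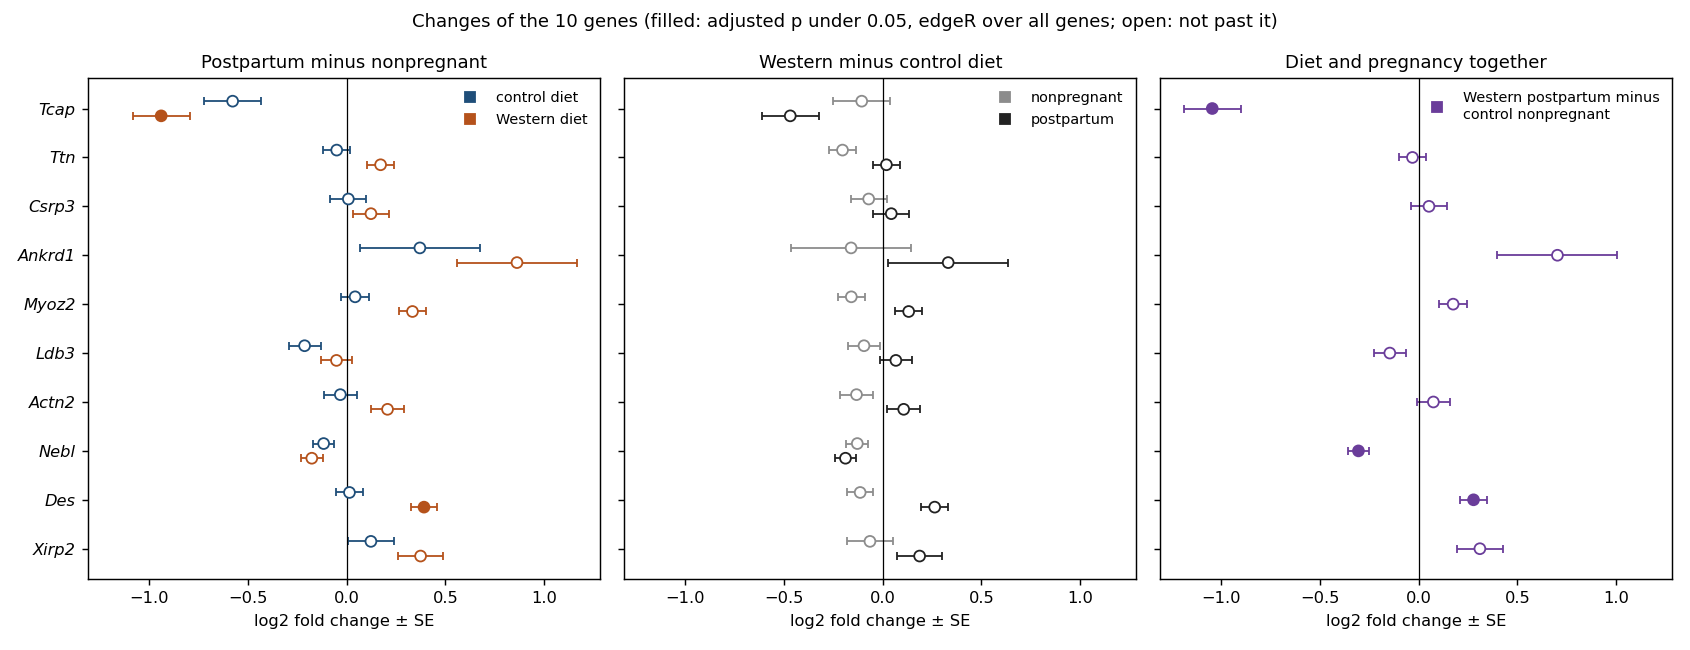
Log2 fold changes with SE (bars) of the 10 genes for postpartum against nonpregnant hearts on each diet, for the effect of diet in each state, and Western diet postpartum against control diet nonpregnant hearts. Filled points passed over all genes tested: Tcap and Des in the first panel, none in the second, and Tcap, Nebl and Des in the third.

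Counted by comparison, 2 of the 10 genes passed for pregnancy on the Western diet, against 0.588% of all genes tested, and 7 had groups that did not overlap, 5 higher and 2 lower, against 19.6% of all genes. The median log2 fold change of the 10 was 0.19, beside -0.0026 for all genes tested. On the control diet 0 passed, against 0.239% of all genes, 2 had an unadjusted p under 0.05, against 12.5% of all genes, DESeq2 called 1 and limma-voom 0. There only Nebl of the 10 had groups that did not overlap, against 17.1% of all genes, and the median was -0.01. For Western diet postpartum against control diet nonpregnant hearts 3 passed, against 2.62% of all genes, and 4 did not overlap (Tcap, Nebl, Des and Xirp2), against 20.2%. For the average over both diets 2 passed, Tcap and Des, against 1.78%. For diet in nonpregnant hearts 0 passed, against 0.0582% of all genes. There all 10 values were below 0, the lowest being -0.20 for Ttn. Their median was -0.12, beside -0.00057 for all genes tested. Medians of the related lists described below were also negative there. They were -0.12 for further Z-disc genes (5 of 25 above 0), -0.08 for titin-bound genes, -0.07 for the desmin network and -0.12 for thin filament ends. The heart muscle markers had a median of -0.098. Of the 10, 3 had an unadjusted p under 0.05, against 9.58% of all genes (DESeq2 and limma-voom called 0). Groups did not overlap for 3 (Ttn, Myoz2 and Nebl), against 14.8% of all genes. For diet in postpartum hearts 0 passed, against 0.879% of all genes, with 3 at an unadjusted p under 0.05, against 14.6% of all genes, 3 called by DESeq2 and 0 by limma-voom, and 3 did not overlap (Des, Tcap and Nebl), against 19.1%. For the diet effect averaged over states 0 passed, against 1.38%, with 2 at an unadjusted p under 0.05, against 14.3% of all genes, 1 called by DESeq2 and 0 by limma-voom. The interaction test called 0 of the 10 and 0% of all genes. Of the 10, 3 had an unadjusted interaction p under 0.05 (Des, Myoz2 and Ttn, named after their values were seen), against 8.98% of all genes, DESeq2 called 1 of the 10 and limma-voom 0. The comparisons share groups, so their counts are not independent of each other. The 10 genes were chosen with earlier results of these data known, so the shares of all genes beside them are description only.

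The other genes of these structures were taken from lists made by function. Of 28 further Z-disc genes 25 were measured above the filter, and 0 passed in any of the 8 comparisons. For pregnancy on the Western diet 10 of the 25 had an unadjusted p under 0.05, against 14.7% of all genes, DESeq2 called 5 and limma-voom 0, and on the control diet 4 had such a p, against 12.5%, and DESeq2 and limma-voom called 0. For the average over diets DESeq2 called 3. Their median was 0.19 for pregnancy on the Western diet, with 19 of 25 above 0, and 0.01 on the control diet. The smallest p in each direction on the Western diet belonged to Nrap, a nebulin-related anchoring protein (log2 fold change 0.41, SE 0.09, adjusted p = 0.0707), and Mlip (-0.12, adjusted p = 0.371). On the control diet it belonged to Csrp1 (0.38, adjusted p = 0.167) and Neb, nebulin (-1.04, adjusted p = 0.197). Neb, also among the skeletal muscle markers above, stood at 10.5, 11.9 and 23.6 CPM in control diet nonpregnant hearts. In control diet postpartum hearts it stood at 7.42, 7.33 and 7.44 CPM. Of 21 genes of titin-bound stretch sensing, the M-band and turnover 20 were tested. Only 1 rose, in the average over both diets, where 1.78% of all genes passed. This was Ankrd23, an ankyrin repeat relative of Ankrd1 that binds the same region of titin (log2 fold change 0.69, SE 0.16, adjusted p = 0.04996). It was named after its values were seen, since its groups on the Western diet overlap (57.2, 66.9 and 88.7 CPM in nonpregnant and 171, 79.3 and 109 CPM in postpartum hearts). The call was lost without any 1 of 9 libraries, all but control diet nonpregnant replicate 1, control diet postpartum replicate 2 and Western diet postpartum replicate 2, at 0.52 to 0.81 over the 12. It was also lost under 6 of 8 other alternatives, among them limma-voom, the robust option and DESeq2's size factors, and kept under DESeq2 and without a filter. Western diet postpartum replicate 1 was the highest for Ankrd23, as it was for Ankrd1. Ankrd23 also had the smallest p among the positive values on the control diet (0.64, adjusted p = 0.286) and the Western diet (0.75, adjusted p = 0.158). Rbm20, the splicing factor of titin, stood at -0.25 on the control diet (adjusted p = 0.227) and Obsl1 at -0.22 on the Western diet (adjusted p = 0.227), the smallest p among the negative values.

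The costamere couples the Z-disc to the cell border. Of 19 genes of the desmin network and the costamere, 1 rose after pregnancy on the Western diet, against 0.588% of all genes. This was Dmd, dystrophin, at 91.9, 99.2 and 107 CPM in nonpregnant and 122, 136 and 145 CPM in postpartum hearts (log2 fold change 0.44, SE 0.09, adjusted p = 0.0419). Its call was lost without any Western diet nonpregnant library or without Western diet postpartum replicate 1 or 3, at 0.38 to 0.50 over the 6. Those fits called at most 7 of all genes. On the control diet the smallest p belonged to Vim, vimentin (0.47, adjusted p = 0.0692), and to Sgcd, delta-sarcoglycan (-0.21, adjusted p = 0.292). Sgcd fell from control diet nonpregnant to Western diet postpartum hearts (-0.38, adjusted p = 0.0294) and with the Western diet averaged over states (-0.29, adjusted p = 0.0226). The first of these calls was lost without any of 5 of 6 libraries, all but control diet nonpregnant replicate 1, and the second without control diet nonpregnant replicate 2, control diet postpartum replicates 1 or 3, or Western diet postpartum replicate 1. The list's median for pregnancy was 0.07 on the control and 0.07 on the Western diet. Of 7 genes at the thin filament ends, 1 fell, between control diet nonpregnant and Western diet postpartum hearts: Lmod3, a leiomodin that nucleates actin (-0.38, adjusted p = 0.0362), a call lost without control diet nonpregnant replicates 1 or 2 or Western diet postpartum replicates 1 or 3. Over all genes 2.62% passed in that comparison. For pregnancy on either diet 0 of the 7 passed. The smallest p belonged to Fhod3, a formin (-0.26, adjusted p = 0.247), and Cfl2, a cofilin (0.03, adjusted p = 0.877), on the control diet, and to Tpm1, tropomyosin (-0.23, adjusted p = 0.194), and Cfl2 (0.09, adjusted p = 0.446) on the Western diet. At an unadjusted p under 0.05 stood 1 on the control and 2 on the Western diet, against 12.5% and 14.7% of all genes, and DESeq2 and limma-voom called 0 on either. These lists were described by counts and medians alone.

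**Figure D4:**
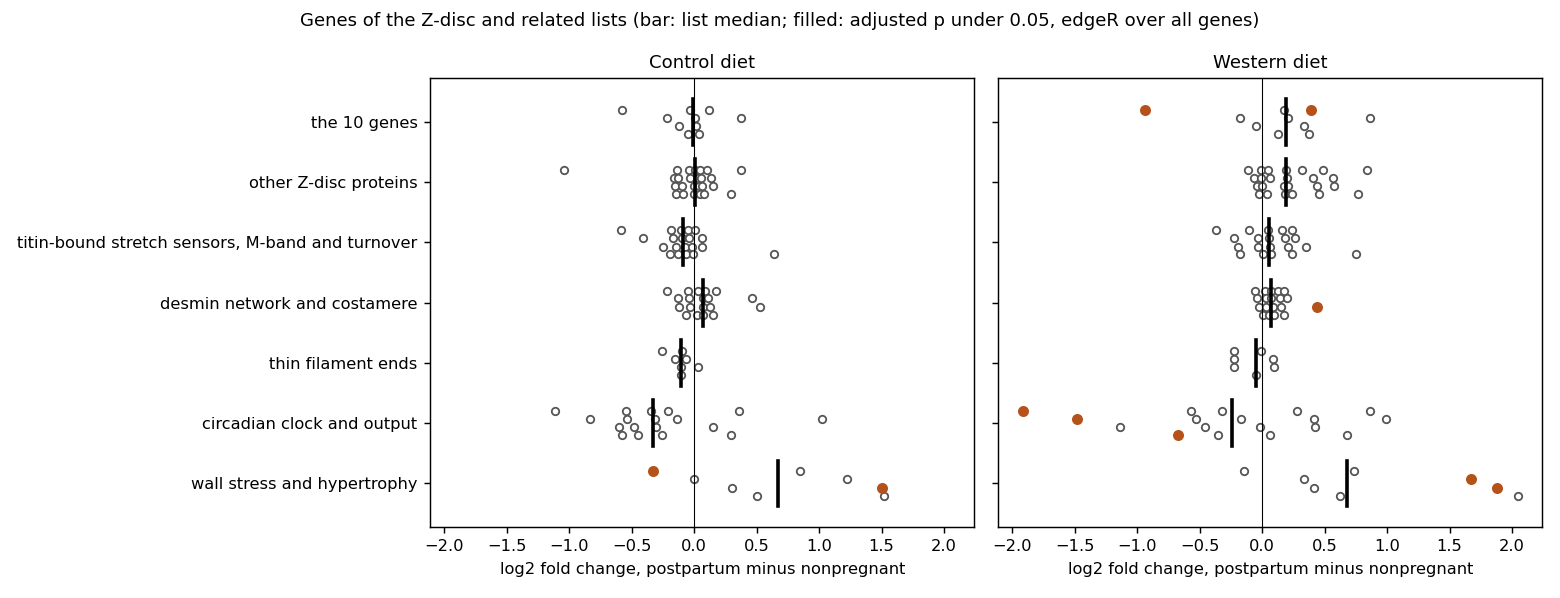
Log2 fold changes, postpartum minus nonpregnant, of the 10 genes and of the 6 related lists on the control diet (left) and the Western diet (right); points are genes, bars are list medians and filled points passed over all genes tested. No further Z-disc gene is filled on either diet, and the clock and wall stress lists reach the lowest and highest values.

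Of 10 wall stress and hypertrophy genes 8 were matched and tested, and 5 rose in the average over both diets: Thbs1 (1.70), Tnc (1.59), Nppb, the natriuretic peptide of stretched ventricles (1.63), Postn (0.59) and Rcan1, a calcineurin target (0.56), with adjusted p from 0.00518 to 0.0306. In the same comparison 1 fell, the slow myosin Myh7 (-0.24, adjusted p = 0.0187), named after its values were seen. Over all genes tested 1.78% passed there. The averaged calls of Thbs1 and Tnc held without each library in turn. Those of the other 4 did not: Rcan1 was lost without control diet nonpregnant replicate 2 or Western diet postpartum replicate 1, Myh7 without Western diet nonpregnant replicate 3 or Western diet postpartum replicate 1, and Nppb without any 1 of 5 libraries (control diet nonpregnant replicates 2 and 3, control diet postpartum replicate 3, Western diet nonpregnant replicate 2, Western diet postpartum replicate 1). Postn was lost without any 1 of 8, all but control diet nonpregnant replicate 1, control diet postpartum replicate 2 and Western diet postpartum replicates 2 and 3. On the control diet alone Tnc rose (1.501, adjusted p = 0.0436) and Myh7 fell (-0.33, adjusted p = 0.0436), against 0.239% of all genes. On the Western diet alone Thbs1 (1.88) and Tnc (1.67) rose, against 0.588% of all genes. The control diet calls were each lost without 5 of 6 libraries and under 3 of 9 other alternatives. Tnc there held only without control diet postpartum replicate 2 and Myh7 only without control diet nonpregnant replicate 1. The Western diet calls of Thbs1 and Tnc were lost without any Western diet nonpregnant library or without postpartum replicate 3. That of Thbs1 was also lost without postpartum replicate 1. Those fits called at most 7 of all genes, against 91 with all libraries. From control diet nonpregnant to Western diet postpartum hearts 4 rose, among them Tnc (1.58), Thbs1 (1.53) and Rcan1 (0.74), and Myh7 fell (-0.26). Over all genes 2.62% passed there. Without 1 library in turn that call of Tnc held, while Thbs1 was lost in 3 of 6 cases (control diet nonpregnant replicates 2 and 3, Western diet postpartum replicate 1), Rcan1 in 4 (those and Western diet postpartum replicate 3) and Myh7 in 5 (all but Western diet postpartum replicate 2). The fibroblast and macrophage markers given above rose in the averaged and control diet comparisons with these genes, of which Tnc, Thbs1 and Postn encode matrix proteins, and their part was not tested. On the control diet alone the markers that rose were Col1a1 (log2 fold change 0.86, adjusted p = 0.0409), Col1a2 (log2 fold change 0.75, adjusted p = 0.0436), Cd68 (log2 fold change 0.80, adjusted p = 0.034), C1qa (log2 fold change 0.52, adjusted p = 0.0364) and C1qb (log2 fold change 0.48, adjusted p = 0.037). Nppa, the atrial natriuretic peptide, fell with the Western diet averaged over states (-0.91, adjusted p = 0.00714). Nppb stood at 85.1, 67.6 and 128 CPM in Western diet nonpregnant and 622, 129.8 and 406 CPM in Western diet postpartum hearts, and postpartum replicate 2 lay just above the highest nonpregnant library. Postpartum replicate 2 was also the lowest of its group for Des, Ttn, Myoz2, Csrp3, Ldb3, Xirp2 and Actn2. Of 18 clock genes, 7 fell in the average over both diets, where 1.78% of all genes passed in either direction. Those without overlap of the groups were Ciart, Dbp, Bhlhe41, Nr1d2 and Tef. On the Western diet alone 3 of them also fell, against 0.588% of all genes. These were Ciart (-1.91), Dbp (-1.48) and Bhlhe41 (-0.67), with adjusted p of 0.0249, 0.0249 and 0.03. The averaged call of Nr1d2 was lost without control diet nonpregnant replicate 2 or Western diet postpartum replicate 1, and that of Tef without any 1 of 9 libraries, all but control diet nonpregnant replicate 1, control diet postpartum replicate 2 and Western diet postpartum replicate 2. The Western diet calls of Ciart, Dbp and Bhlhe41 were lost without any Western diet nonpregnant library or without postpartum replicate 1 or 3. So was that of Tcap, but those fits called at most 7 of all genes, against 91 with all libraries. The shared loss is thus not particular to these genes. From control diet nonpregnant to Western diet postpartum hearts 2.62% of all genes passed. Of the 18 clock genes 5 fell there, Hlf (-0.88) and Nr1d2 (-0.49) with the 3 named, and Nfil3 rose (1.06, adjusted p = 0.0191). Of these Ciart and Dbp held without each library in turn, Bhlhe41, Hlf and Nfil3 were lost without control diet nonpregnant replicate 2 or Western diet postpartum replicates 1 or 3, and Nr1d2 without any control diet nonpregnant library or Western diet postpartum replicate 1. In the control diet comparison 0 of 18 passed, 10 had an unadjusted p under 0.05, against 12.5% of all genes, and Cry2 (-0.53, adjusted p = 0.0737) and Arntl (1.02, adjusted p = 0.289) had the smallest in each direction; DESeq2 called 4 and limma-voom 0. Dbp, an output factor with a strong daily rhythm, stood at 156, 129 and 119 CPM in Western diet nonpregnant and 35.2, 55.4 and 54.4 CPM in Western diet postpartum hearts. Dbp on the control diet stood at 133, 175 and 142 CPM in nonpregnant and 53.6, 105 and 94.8 CPM in postpartum hearts, and postpartum replicate 1 was as low as Western diet postpartum hearts. Within each group but Western diet nonpregnant, replicate 2 held the most Dbp and the most Tcap. In Western diet nonpregnant hearts replicate 1 held the most Dbp and replicate 2 the most Tcap. The least Dbp and the least Tcap lay in the same library in both nonpregnant groups. In both postpartum groups replicate 1 held the least Dbp but replicate 3 the least Tcap. Of the 18 clock genes only Dbp was set beside Tcap by these orders, with results known. How often other genes share such orders was not examined. The hour at which hearts were taken is not given in the sources used here, and the part of these genes in the result for Tcap was not tested.

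**Figure D5:**
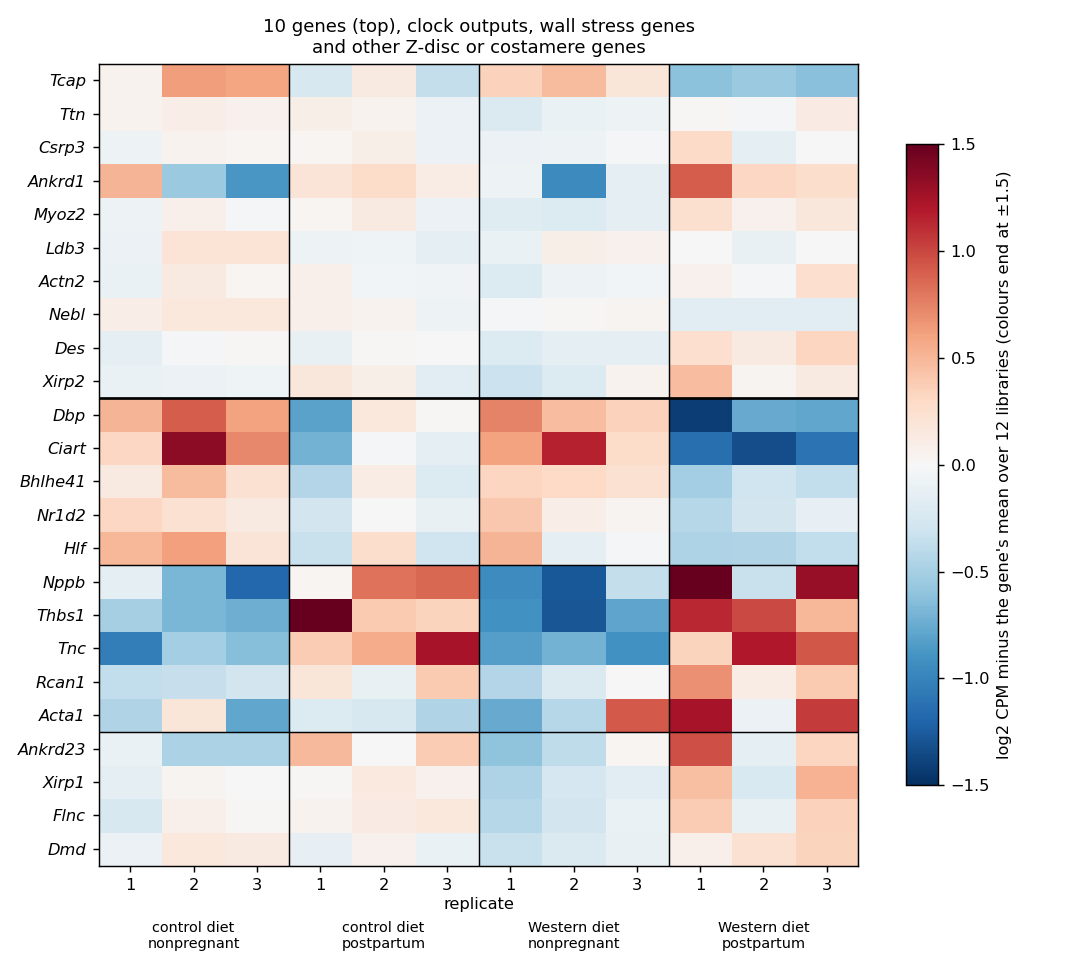
Log2 CPM of each gene minus its mean over 12 libraries, by library and group, for the 10 genes (above the thick line) and selected others. Below the line are clock genes, wall stress genes, and 4 other genes of the Z-disc, titin and costamere lists. These were picked with results known and are not whole lists. The clock genes Nfil3 and Arntl, with positive values above, and the wall stress genes Myh7 and Nppa, with falls above, are not drawn. Colours end at ±1.5. Tcap is lowest in the 3 Western diet postpartum libraries, and Ankrd1 is high in control diet nonpregnant replicate 1.

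The 2 genes with the smallest p in any comparison were Tcap and Des, and for each the genes with the nearest pattern were found by the root mean square difference of centred log2 CPM over the 12 libraries. Nearest to Tcap were the heart growth factor Fgf16 (difference 0.184, beside a spread of Tcap itself of 0.448 by the same measure), the clock repressor Bhlhe41 (0.185), Ccbe1 (0.211), Cth, an enzyme of cysteine synthesis (0.218), and Dnaaf3 (0.221). Fgf16 had group means of 24.0, 18.7, 19.8 and 11.2 CPM in control diet nonpregnant, control diet postpartum, Western diet nonpregnant and Western diet postpartum hearts. Nearest to Des were Tmco4 (0.0479, beside 0.156 for Des itself), Ybx3 (0.051), the cristae protein Chchd3 (0.0559), sorbitol dehydrogenase Sord (0.0615) and Wdtc1 (0.0617). Among the 10 genes themselves the pair farthest apart was Tcap and Ankrd1 (0.93), and the 8 others differed from one another by 0.0662 to 0.264. These differences share the libraries and their scaling, and they carry no test.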

How the data were processed

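Each library came with 1 file of raw counts, deposited by the authors. Per the submitters' processing notes, the tools were STAR (2.5.2b), featureCounts in Subread (1.5.2) and FastQC, with genome GRCm38 (mm10); the sources used here do not give the annotation release or strand setting. RNA was isolated with an RNeasy kit and libraries built with the NEBNext Ultra RNA kit, per the labels. Files were joined by gene ID, since the gene order differed in 1 of them. Of 49315 IDs, 345 had no symbol. Length per gene, another deposited column (per the file headers the counted exon bases), gave CPM per kb.

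All 12 libraries were fitted at once in edgeR 4.0.16 (R 4.3.3) with a mean per group, after filterByExpr (minimum count 10, total 15) and TMM scaling. The 8 contrasts were tested two-sided by quasi-likelihood F tests, Benjamini-Hochberg adjusted within each comparison over 15476 genes at 0.05; SE is the log2 fold change over the root of F. Groups came from titles, whose numbers pair no libraries. The procedure was tested on simulated data. Alternatives were DESeq2 1.42.0, limma-voom (limma 3.58.1), DESeq2's size factors, other filters (none, or 1 CPM in 3 libraries), the robust option, no mitochondrial genes, only the groups compared, each library left out, and 2 control diet libraries (postpartum replicate 3, nonpregnant replicate 1) left out together. The 10 genes and all lists were chosen with earlier results of these data known. List genes are named where they passed without overlap of the groups, up to 6 per list and comparison; where none passed, the smallest p per direction is named, in print only for the 2 pregnancy comparisons. For Tcap and Des, which had the smallest p in any comparison, the 5 genes nearest in pattern are named, predicted and clone names left out. Of the list symbols, 2 (Ctgf and Cyr61) were not matched. Single-gene fold changes were recomputed under each alternative where the unadjusted p was under 0.05, for Ankrd1 throughout, and where the text names a list gene.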

Additional observations from a re-analysis of the deposited data

How the results depend on the processing

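The number of the 10 genes called was recomputed under each alternative. Without a filter on low counts it was 2 (against 0) for pregnancy on the control diet, 5 (against 2) on the Western diet, 5 (against 2) for the average over diets, 5 (against 3) for Western diet postpartum against control diet nonpregnant hearts, 3 (against 0) for diet in postpartum hearts, 2 (against 0) for the averaged diet effect and 3 (against 0) for the interaction. Over all genes that setting called 744, 933, 1262, 1315, 1048, 1029 and 506 in this order, against 37, 91, 276, 406, 136, 214 and 0, and 454 against 9 for diet in nonpregnant hearts. DESeq2 called 1, 3, 4, 3, 3, 1 and 1 of the 10 in the same order, and 184, 361, 615, 779, 456, 485 and 43 of all genes, and 95 for diet in nonpregnant hearts. With only the groups compared the fit called 6, 47, 136, 71 and 0 of all genes for pregnancy on the control and Western diets, Western diet postpartum against control diet nonpregnant hearts, and diet in postpartum and nonpregnant hearts. With DESeq2's size factors, the 1 CPM filter or the robust option the count on the Western diet was 3, through Myoz2. Only the groups compared gave 1 for Western diet postpartum against control diet nonpregnant hearts, and leaving out mitochondrial genes gave 1 for the average over diets, where the adjusted p of Des became 0.0505. Without 2 control diet libraries together (postpartum replicate 3, nonpregnant replicate 1) the counts were 1 for pregnancy on the control diet, 1 for diet in postpartum hearts and 2 for the averaged diet effect. With 1 library left out, counts ran from 0 to 2 and 0 to 3 for pregnancy on the control and Western diets, 1 to 5 for its average, 1 to 3 for Western diet postpartum against control diet nonpregnant hearts, 0 to 1 for diet in postpartum hearts and for its average, and stayed at 0 for diet in nonpregnant hearts and the interaction. Over all genes the counts with 1 library left out ran from 0 to 205 and 0 to 472 for pregnancy on the control and Western diets, 52 to 567 for its average, 87 to 764 for the combined comparison, 0 to 4 and 30 to 490 for diet in nonpregnant and postpartum hearts, 83 to 378 for its average and 0 to 53 for the interaction. The cause was not tested. Of 34 calls of named list genes, 9 held without each library in turn and 25 did not. Ankrd1 changed sign for diet in nonpregnant hearts, from -0.16 to a range of -0.41 to 0.38 with 1 library left out and to 0.37 without the pair. It did so for the interaction, from 0.49 to a range of -0.05 to 0.74 and -0.0886, and for the averaged diet effect, from 0.09 to a range of -0.0400 to 0.3518; none of these passed. Cfl2 on the control diet turned from 0.03 to -0.0098 without the pair, and to a range of 0.0020 to 0.0691 with 1 library left out. Tcap kept its direction in every comparison reported and its calls outside the Western diet comparison under all alternatives run. No paired analysis was possible because no library number occurs in more than 1 group. Depth did not limit these genes, whose lowest count was 5375.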
